A study of Homo sapiens with 8 samples.

Results

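Rosiglitazone alone was set against carboplatin alone in a human lung adenocarcinoma cell line, so that each drug was compared with the other rather than with untreated cells. The arrays were chosen by their titles, and 4 of the 8 in the series belong to the contrast. Cells had been cultured overnight and then given fresh medium with rosiglitazone at 1 µM (2 arrays) or carboplatin at 10 µM (2 arrays) for 24 h. A DMSO or medium control (2 arrays) and both drugs together (2 arrays) completed the series, and the combined doses are not restated in the labels. The labels name neither the cell line nor the source of the arrays within a group, and where both came from 1 culture a p-value speaks only for technical spread. As 1 cell line was used at 1 dose of each drug and 1 time, nothing here bears on other lines, doses or times.

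Rosiglitazone is a thiazolidinedione that binds PPARγ, a nuclear receptor. The receptor pairs with a retinoid X receptor on DNA and switches on genes for the uptake, storage and burning of fatty acids. Carboplatin is a platinum compound that binds DNA bases and crosslinks them, and DNA damage of this kind activates the transcription factor p53, whose targets halt the cell cycle, repair DNA or drive cell death. Metallothioneins, a family of small cysteine-rich proteins, bind zinc and copper and can also bind platinum.

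Each Affymetrix array reads a gene with 1 or more probe sets. Values below are log2 of the deposited signal plus 16, after quantile normalization. Differences are rosiglitazone minus carboplatin on that log2 scale with their standard error (SE). Fold values are these differences taken back from log2, so they are ratios of signal plus 16 and understate ratios of signal. Levels of different probe sets are not comparable. Before normalization the rosiglitazone arrays were the brighter, with median log2 values of 5.97 and 6.14 against 5.74 and 5.92 with carboplatin. The part of brightness in the results was not tested beyond a fit with brightness as a covariate, which called 14 probe sets in place of 32. Each cell type marker was read on its probe set of highest mean. Epithelial keratins KRT7, KRT8 and KRT18 lay at or above the 98.2th percentile of all probe sets. The keratin KRT19 lay lower, at 76.2, and the epithelial marker CDH1 at 65.9. The lung marker NKX2-1 (percentile 20.8) and the epithelial marker EPCAM (percentile 27.7) lay below the filter on dim probe sets. The surfactant genes SFTPB and SFTPC lay near the middle, at 52.0 and 51.8, but further probe sets of both lay below the filter. Of 16 markers of fibroblasts, leukocytes, endothelium and adipocytes, 4 passed the filter and none was called. The summed log2 level of all 16 was 79.6 and 82.1 on the rosiglitazone arrays and 80.0 on each carboplatin array. In such bulk RNA, fewer cells expressing a gene and less RNA per cell cannot be told apart.

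ANGPTL4, PLIN2 and 3 other PPAR targets were higher with rosiglitazone, and CDKN1A and GDF15 were higher with carboplatin. With limma and Benjamini-Hochberg adjustment at 0.05, 32 of 13329 probe sets were called, which is 0.240% of those tested. Of these, 24 (0.180%) were higher with rosiglitazone and 8 (0.0600%) were higher with carboplatin, and they stand for 29 named genes and 1 unnamed probe set. On all 32, both arrays of one drug lay beyond both arrays of the other, as they also did on 17.4% of all probe sets upward and 17.9% downward. At an unadjusted p below 0.05 there were 885 probe sets, where chance alone would give about 666. Without a filter on dim probe sets 9 were called. The split of 24 against 8 was 20 against 3 with the deposited scaling and 12 against 2 with median scaling. Only 10 of the 23 calls with the deposited scaling were among the 32, whereas all 14 with median scaling were. Leaving out an array gave 5 calls without rosiglitazone replicate 1, 6 without rosiglitazone replicate 2, 5 without carboplatin replicate 1 and 16 without carboplatin replicate 2. It gave 15 without either control array, 20 without combination replicate 1 and 21 without combination replicate 2. The direction of all 32 was kept in each of up to 18 alternatives, and 4 of them were called in every one: ANGPTL4, PLIN2, DLC1 and FA2H. As the arrays of the drugs overlapped on none of the 32, leaving out an array could hardly turn a direction. A kept direction is therefore no separate support.

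**Figure D1:**
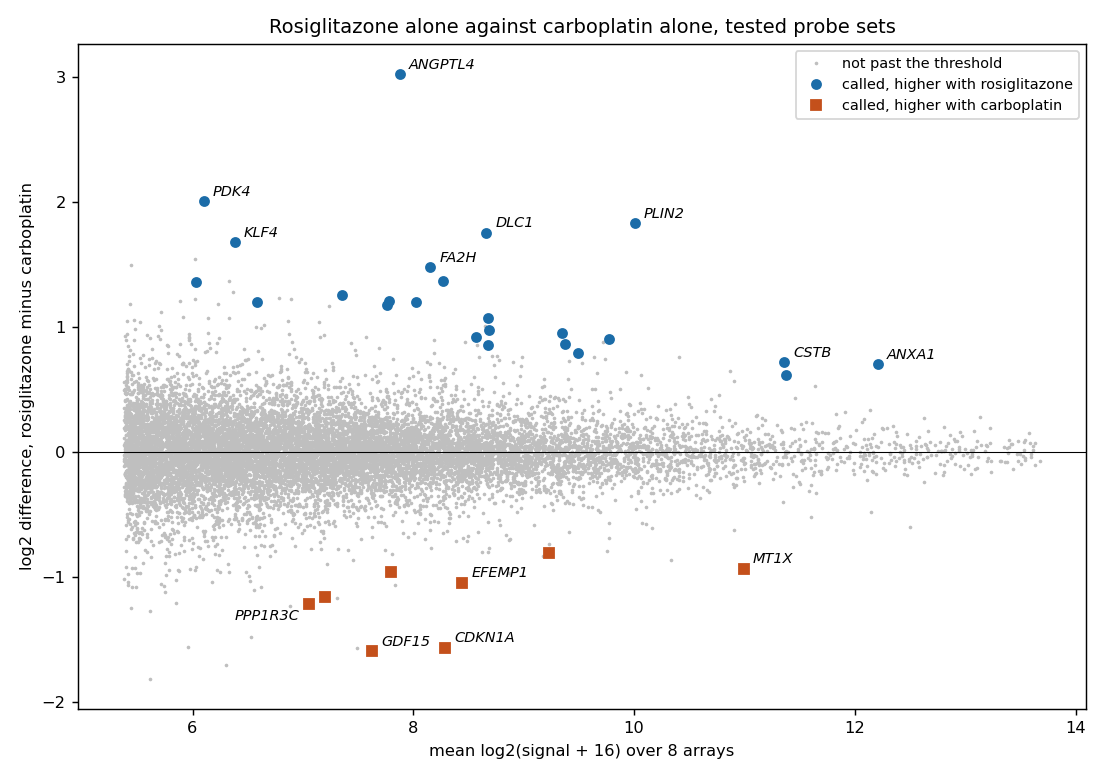
Difference between rosiglitazone and carboplatin (log2, vertical axis) against the mean log2 level over all 8 arrays (horizontal axis), 1 point per tested probe set, with the 32 called probe sets coloured by direction. ANGPTL4 at 3.02 lies farthest from 0, and the spread of uncalled probe sets is wider at low levels.

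ANGPTL4 encodes a secreted inhibitor of lipoprotein lipase and is a classical PPAR target. Its level was 9.24 and 9.34 on the rosiglitazone arrays and 6.18 and 6.36 on the carboplatin arrays. The difference was 3.02 ± 0.23 (SE, n = 2 arrays per drug), or 8.10-fold higher with rosiglitazone (95% interval of the log2 difference 2.51 to 3.52, limma adjusted p = 0.000187). Control arrays read 6.48 and 6.87, close to carboplatin.

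PLIN2, the coat protein of lipid droplets, had the smallest p-value of the contrast. It read 10.90 and 10.92 with rosiglitazone and 9.11 and 9.05 with carboplatin, a 3.55-fold difference (1.83 ± 0.12, limma adjusted p = 9.37e-05). PDK4, the kinase that shuts off pyruvate dehydrogenase when cells burn fat, read 7.28 and 7.34 against 4.92 and 5.69, a difference of 2.0 ± 0.31 (limma adjusted p = 0.0350). The carboplatin arrays of PDK4 lay apart from each other, and the call was lost in 9 of 17 alternatives, without either rosiglitazone array or carboplatin replicate 1 among them. ECH1, a peroxisomal and mitochondrial isomerase of fatty acid oxidation, read 9.87 and 9.71 against 8.93 on each carboplatin array (0.86 ± 0.13, limma adjusted p = 0.0340).

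AQP3, a water and glycerol channel, read 6.72 and 6.94 with rosiglitazone, against 5.40 and 5.53 with carboplatin. Control was lowest at 4.91 and 5.0. Its direct difference was 1.36 ± 0.21 (limma adjusted p = 0.0348). Both drugs lay above control for AQP3, by 1.87 with rosiglitazone, which was called, and by 0.51 with carboplatin, which was not. Outside the PPAR list, a pair of genes of lipid handling was called. APOC1, an apolipoprotein, read 9.04 and 8.68 against 7.67 and 7.33 (1.36 ± 0.23, limma adjusted p = 0.0427). Its probe set is of a type that can bind transcripts of several genes, and the call was lost in 10 of 18 alternatives. FA2H, the fatty acid 2-hydroxylase of sphingolipid synthesis, read 8.79 and 8.92 against 7.42 and 7.33 (1.48 ± 0.14, limma adjusted p = 0.00140).

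Genes of lipid storage and transport lay on both sides of 0. Of 19 tested, PLIN2 and APOC1 were called upward and 0 downward, against 22 and 7 of all 8023 genes. Of the 19, 11 lay above 0 and 8 below, and the median was 0.17. Both rosiglitazone arrays lay above both carboplatin arrays for 47.4% of the 19, against 17.1% of all genes. The reverse held for 15.8%, against 19.6% of all genes. LIPE, the hormone-sensitive lipase, gave -0.46 ± 0.29 (limma adjusted p = 0.886), a member chosen after its value was seen.

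Of the 45 genes listed as PPAR targets, 38 were on the array and 25 passed the filter. Among these 25, 5 were called higher with rosiglitazone (ANGPTL4, PLIN2, PDK4, AQP3 and ECH1) and 0 lower, against 22 and 7 of all 8023 genes. The list was chosen with earlier results of these data known, so its counts are not independent evidence. Their median difference was 0.39, against -0.01 over all genes, and 18 of 25 lay above 0. The median stayed above 0 in all 19 alternatives, from 0.21 with a pseudocount of 64 to 0.61 with the deposited scaling, which also shifted the whole array, to a median of 0.27 over all tested probe sets. Set against control, the median of the 25 was 0.43 for rosiglitazone and -0.04 for carboplatin. These contrasts share arrays with the direct one.

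The uncalled members of that list spread widely. CPT1A, which carries long-chain fatty acids into mitochondria, differed by 0.69 ± 0.13 (limma adjusted p = 0.0860). CAT, or catalase, differed by 0.71 ± 0.15 (limma adjusted p = 0.109). UCP2, a mitochondrial carrier, lay the other way at -0.41 ± 0.14 (limma adjusted p = 0.565). These 3 were chosen after their values were seen.

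The receptor itself differed little. PPARG read 7.90 and 8.16 under rosiglitazone, against 8.07 and 8.19 under carboplatin, a difference of -0.10 ± 0.15 (95% interval -0.44 to 0.23). The sign turned without rosiglitazone replicate 1, and with the deposited scaling the value of 0.21 lay below the 0.27 of all probe sets. RXRA, its partner, read 8.42 and 8.14 against 8.14 and 7.86 (0.28 ± 0.18, limma adjusted p = 0.887). For PPARG the arrays of the drugs overlapped, and for RXRA the lower rosiglitazone array met the higher carboplatin array.

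**Figure D2:**
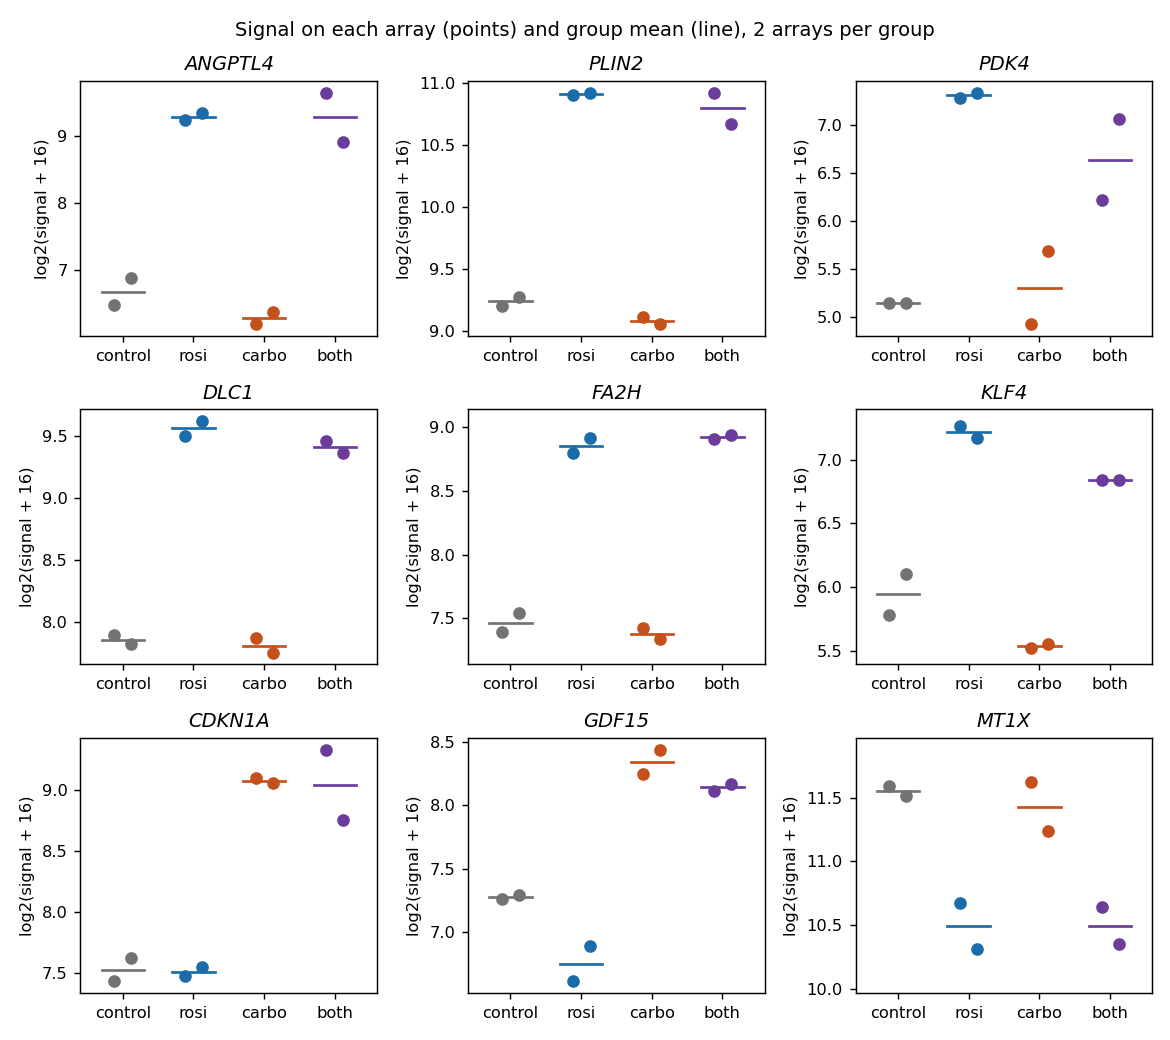
Log2 signal on each array for genes of the contrast, 1 panel per gene, with 2 points per group and the group mean as a line. Vertical axes differ between panels and do not start at 0. ANGPTL4 and PLIN2 are high with rosiglitazone and with the combination, whereas CDKN1A and GDF15 are high with carboplatin and with the combination.

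Other genes higher with rosiglitazone act in signalling and transcription. DLC1, a tumour suppressor often deleted in liver cancer, read 9.50 and 9.62 with rosiglitazone and 7.87 and 7.75 with carboplatin (1.75 ± 0.13, 3.37-fold, limma adjusted p = 0.000187). RHOF read 8.71 and 8.42 against 7.45 and 7.29 (1.20 ± 0.18, limma adjusted p = 0.0328). For neither gene did the arrays of the drugs overlap.

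The transcription factors KLF4 and JUN were called, as was EPAS1, the hypoxia-inducible factor 2α subunit. KLF4 read 7.26 and 7.17 with rosiglitazone and 5.53 and 5.55 with carboplatin (1.68 ± 0.20, limma adjusted p = 0.00670). Against control KLF4 stood at 1.27 with rosiglitazone and -0.40 with carboplatin. For JUN 2 of 4 tested probe sets were called, at 1.20 and 0.92. EPAS1 read 10.23 and 10.25 against 9.16 and 9.52 (0.90 ± 0.16, limma adjusted p = 0.0496).

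ATP2B4, a calcium pump of the plasma membrane, read 8.39 and 8.38 against 7.23 and 7.18 (1.18 ± 0.14, limma adjusted p = 0.00761). A second ATP2B4 probe set gave -0.07, the 1 probe set of a called gene with the opposite sign among 15 uncalled ones. SQSTM1, the autophagy receptor p62, was called on both of its probe sets, at 0.97 and 0.61. Other differences were 1.26 ± 0.20 for LXN (latexin, a carboxypeptidase inhibitor), 1.21 ± 0.16 for PPP2R3A (a regulatory subunit of protein phosphatase 2A) and 1.07 ± 0.17 for PODXL (podocalyxin, a surface sialomucin). TNFRSF21, or death receptor 6, differed by 0.95 ± 0.14.

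Smaller called differences upward were POR at 0.86 ± 0.13, PTGES at 0.79 ± 0.13, CSTB at 0.72 ± 0.10 and ANXA1 at 0.70 ± 0.11. POR donates electrons to cytochromes P450, PTGES makes prostaglandin E2, CSTB inhibits cathepsins and ANXA1 is a phospholipid-binding annexin. With EPAS1 and SQSTM1, these 4 were named after their values were seen, so that every called gene is given.

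GDF15, a secreted stress cytokine and p53 target, had the largest called difference toward carboplatin. It read 8.25 and 8.44 with carboplatin and 6.61 and 6.89 with rosiglitazone, with control between them at 7.26 and 7.29. The difference was -1.60 ± 0.16, or 3.02-fold higher with carboplatin (limma adjusted p = 0.00208). The called probe set is of a type that can bind transcripts of several genes. Another GDF15 probe set, below the filter, read 4.16 and 4.13 with rosiglitazone and 4.13 and 4.16 with carboplatin. GDF15 was called in 17 of 18 alternatives and lost with the deposited scaling, where limma adjusted p = 0.197. Neither drug's own difference from control was called, at -0.53 for rosiglitazone and 1.07 for carboplatin.

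CDKN1A encodes p21, the cyclin-dependent kinase inhibitor through which p53 arrests the cell cycle. It read 9.10 and 9.06 with carboplatin, 7.48 and 7.55 with rosiglitazone, and 7.43 and 7.62 in control. The difference was -1.57 ± 0.18, or 2.96-fold higher with carboplatin (limma adjusted p = 0.00670). Rosiglitazone left CDKN1A within the range of the control arrays. CDKN1A was 1 of 2 probe sets called in carboplatin against control (0.0150% of those tested). Its call in the direct contrast was lost with the deposited scaling, without the intensity trend, and without either rosiglitazone array or carboplatin replicate 1.

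Of 44 listed p53 targets, 34 were on the array and 30 passed the filter. Among these 30, 2 were called higher with carboplatin (GDF15 and CDKN1A) and 0 higher with rosiglitazone, against 7 and 22 of all 8023 genes. This list too was chosen with earlier results of these data known. The median difference was -0.39, and 28 of 30 lay below 0, whereas 4205 of all 8023 genes did. Both carboplatin arrays lay above both rosiglitazone arrays for 20 of the 30, or 66.7%, against 19.6% of all genes. The median stayed below 0 in all 19 alternatives, from -0.47 to -0.10. The latter came with the deposited scaling, where the median over all tested probe sets was 0.27.

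Several p53 targets missed the threshold with sizeable differences. PLK2, a kinase induced by p53, read 8.90 and 9.07 with carboplatin and 8.05 and 8.31 with rosiglitazone (-0.80 ± 0.16, limma adjusted p = 0.0970). RPS27L, a ribosomal protein paralog, read 11.16 and 11.26 against 10.46 and 10.71 (-0.63 ± 0.13, limma adjusted p = 0.102). BAX, a pore-forming death protein, gave -1.24 ± 0.38 (limma adjusted p = 0.425), with rosiglitazone arrays as far apart as 5.43 and 6.87. MDM2, the ubiquitin ligase of p53, read 6.33 and 5.05 with rosiglitazone and 6.20 and 5.94 with carboplatin, so that its arrays overlapped (-0.38 ± 0.37).

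The 5 other carboplatin-higher calls with a gene name were PPP1R3C, EFEMP1, NXN, MT1X and CSGALNACT1. PPP1R3C, which targets protein phosphatase 1 to glycogen, read 7.74 and 7.44 with carboplatin and 6.17 and 6.57 with rosiglitazone (-1.22 ± 0.20, limma adjusted p = 0.0374). EFEMP1, an extracellular matrix fibulin, read 8.85 and 9.17 against 7.90 and 8.03 (-1.05 ± 0.16, limma adjusted p = 0.0303). For EFEMP1 the control arrays, at 8.92 and 8.83, lay with carboplatin. NXN, a thioredoxin-like protein, differed by -0.96 ± 0.15, and CSGALNACT1, an enzyme of chondroitin sulfate synthesis, by -0.81 ± 0.14. The eighth call, a probe set without a gene name in the annotation used, differed by -1.16 ± 0.19 and is called the unnamed probe set below.

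All 7 tested metallothionein genes lay lower with rosiglitazone than with carboplatin, and 1 of them was called. Since the members lay on one side together, the promoters of the 3 tested members held in the RefSeq table are shown, 250 bases upstream of the start on the + strand of GRCh38.p14. Capitals mark TGCNCNC on either strand, with any base at N. This loose pattern was searched for the metal response element, which the zinc sensor MTF1 binds. MT2A is shown at chr16:56608334-56608583, MT1X at chr16:56682220-56682469 and MT1H at chr16:56669564-56669813.
MT2A: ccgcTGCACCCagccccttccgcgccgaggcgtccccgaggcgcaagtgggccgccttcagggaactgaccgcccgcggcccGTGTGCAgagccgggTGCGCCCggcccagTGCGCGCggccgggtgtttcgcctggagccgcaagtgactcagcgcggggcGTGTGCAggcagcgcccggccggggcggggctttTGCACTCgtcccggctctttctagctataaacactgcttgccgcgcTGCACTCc
MT1X: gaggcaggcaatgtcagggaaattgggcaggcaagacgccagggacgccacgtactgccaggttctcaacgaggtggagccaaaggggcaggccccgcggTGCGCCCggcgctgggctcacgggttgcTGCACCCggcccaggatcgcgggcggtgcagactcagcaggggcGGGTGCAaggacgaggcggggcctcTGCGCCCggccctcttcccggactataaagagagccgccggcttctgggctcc
MT1H: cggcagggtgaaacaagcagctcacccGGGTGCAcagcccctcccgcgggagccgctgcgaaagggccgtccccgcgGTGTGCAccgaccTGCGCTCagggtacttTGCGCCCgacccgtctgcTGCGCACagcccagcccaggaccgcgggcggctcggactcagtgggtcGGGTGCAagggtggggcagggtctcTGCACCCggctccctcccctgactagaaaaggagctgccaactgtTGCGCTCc
The pattern occurred 7 times in the MT2A promoter, 4 times in that of MT1X and 8 times in that of MT1H. It occurred at least 4 times in 1.70% of all 27305 promoters, and at least once in 48.4%. The cut of 4 equals the lowest of the 3 counts, so all 3 promoters pass it. The PPAR direct repeat, AGGTCA followed by any base and AGGTCA again on either strand, occurred in 0 of the 20 PPAR target promoters held and in 0.0183% of all. At 5 promoters of all, this exact repeat is too rare for its absence from 20 to tell anything. The p53 half-site occurred in 3 of the 25 p53 target promoters held and in 5.53% of all. These matches describe the letters in this window and say nothing about binding.

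MT1X was the called member. It read 10.67 and 10.32 with rosiglitazone and 11.62 and 11.24 with carboplatin, and control lay with carboplatin at 11.59 and 11.51. The difference was -0.94 ± 0.16 (limma adjusted p = 0.0438), and the call held in 4 of 18 alternatives. MT2A, the gene of isoform 2, read 12.27 and 11.96 against 12.76 and 12.67 (-0.60 ± 0.12, limma adjusted p = 0.0915). MT1H read 9.93 and 9.82 against 10.49 and 10.48 (-0.61 ± 0.12, limma adjusted p = 0.0986).

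The other members gave -0.79 ± 0.15 for MT1G, -0.83 ± 0.18 for MT1F, -0.57 ± 0.19 for MT1E and -0.23 ± 0.34 for MT3, and none of these 4 was called. The median of the 7 genes was -0.61. On all 7 both carboplatin arrays lay above both rosiglitazone arrays, as they did on 19.6% of all genes. Against control the median was -0.77 for rosiglitazone and -0.08 for carboplatin. All 10 tested probe sets lay lower with rosiglitazone, but 9 of the 10 are of a type that can bind transcripts of several genes, so the isoforms are not independent readings. The 3 probe sets below the filter gave 0.0007 for a further MT1G probe set, 0.07 for MT1M and -0.82 for MT4. The family was listed because the study is known to have reported on it from these samples, so its direction is not independent evidence. MT3 turned its sign with brightness as a covariate. The deposited scaling moved the family's median to -0.39, and that of all tested probe sets to 0.27.

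Over all 8023 genes, 22 were called upward and 7 downward. Of 18 immediate early genes, KLF4 and JUN were called upward and 0 downward, and the list's median was 0.00. Of 24 extracellular matrix genes, EFEMP1 and CSGALNACT1 were called downward and 0 upward, with a median of -0.01. In the same list FN1, or fibronectin, at 0.76 ± 0.14 (limma adjusted p = 0.0607) and COL6A2 at 0.85 ± 0.15 (limma adjusted p = 0.0604) lay higher with rosiglitazone without passing.

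Genes of sterol synthesis had 15 of 17 members above 0 and a median of 0.18, with 0 called. INSIG1, a sterol sensor, led them at 0.58 ± 0.21 (limma adjusted p = 0.585). Of 18 NF-κB targets 12 lay below 0 and 0 were called, with a median of -0.13. With the deposited scaling it was 0.16, still below the 0.27 of all probe sets. The chemokine CCL2 read 6.81 on each rosiglitazone array and 7.64 and 7.77 with carboplatin (-0.90 ± 0.19, limma adjusted p = 0.105). The medians of mitosis genes (0.01, 40 tested) and DNA replication genes (-0.03, 39 tested) lay near that of all genes, and 0 of either list were called. The mitosis median turned to -0.07 without rosiglitazone replicate 2. Of 13 genes of platinum transport and detoxification 0 were called, and ABCG2, a drug efflux pump, gave 0.79 ± 0.18 (limma adjusted p = 0.145).

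**Figure D3:**
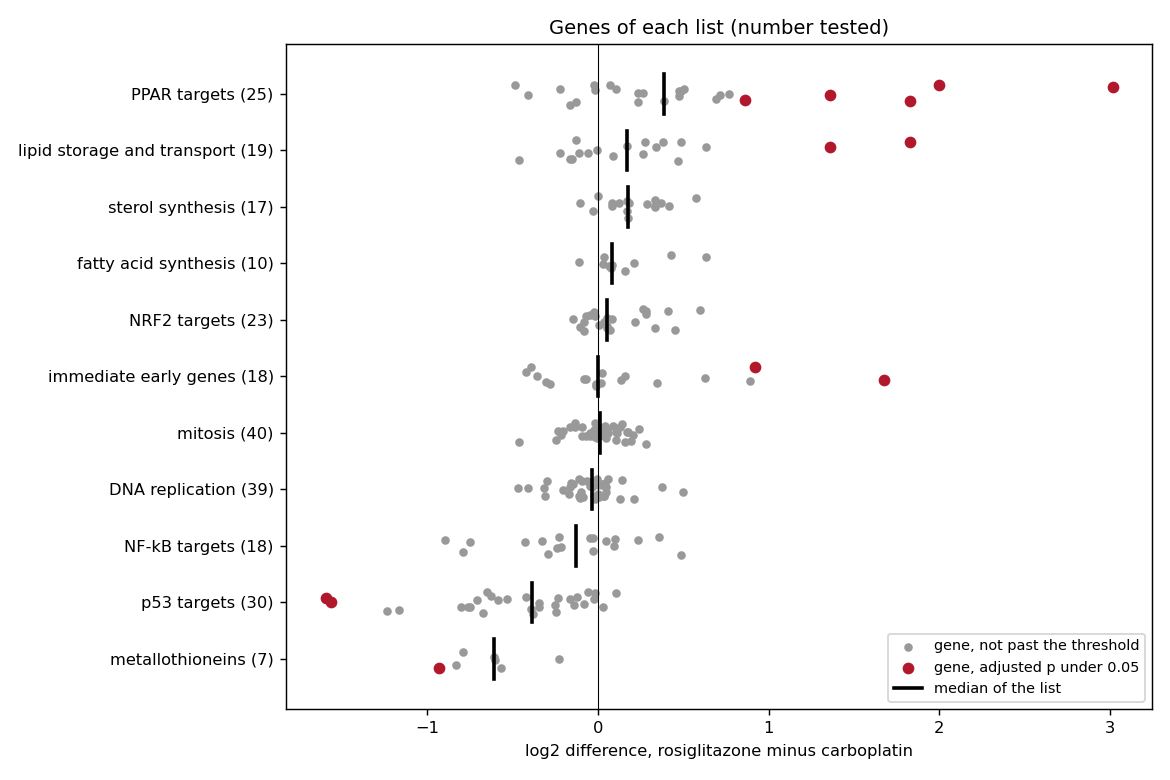
Difference between rosiglitazone and carboplatin (log2, horizontal axis) for every tested member of 11 gene lists, 1 point per gene, with the list median as a bar and called genes in red. PPAR targets lie mostly to the right with a median of 0.39, and p53 targets and metallothioneins to the left, with medians of -0.39 and -0.61.

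Both drugs raised ERF, a repressor of the ETS family. From 7.01 and 6.62 in control it went to 7.80 and 8.09 with rosiglitazone and to 8.41 and 8.30 with carboplatin. Averaged over both drugs it lay 1.33 ± 0.15 above control (limma adjusted p = 0.0335), the 1 call of that contrast (0.00750% of those tested), and it stayed past the threshold in 5 of 18 alternatives. It was lost without control replicate 2 and without any single array of the drugs or the combination. Each drug alone was called against control, at 1.13 for rosiglitazone (limma adjusted p = 0.0271) and 1.54 for carboplatin (limma adjusted p = 0.0257). The difference between the drugs was -0.41, with a 95% interval of -0.80 to -0.03 and limma adjusted p = 0.690. CXCL8, the chemokine interleukin-8, read 7.69 and 7.63 in control, 6.45 and 6.40 with rosiglitazone, and 7.17 and 6.54 with carboplatin. Its mean over both drugs lay 1.02 below control without passing (limma adjusted p = 0.172).

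The control and combination arrays were then placed between the single drugs for each called probe set, with carboplatin at 0% and rosiglitazone at 100%. Control lay nearer carboplatin on 29 of 32 probe sets, with a median position of 7.42%, and on 56.3% of all tested probe sets. The combination lay nearer rosiglitazone on 29 of 32, with a median position of 92.1%, and on 52.1% of all tested probe sets. NXN lay midway in the combination, at 50.3%. The exceptions on both counts were CDKN1A, GDF15 and the unnamed probe set, on which control lay nearer rosiglitazone and the combination nearer carboplatin. ANGPTL4 read 9.65 and 8.91 with both drugs, and CDKN1A read 9.34 and 8.75.

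Against the mean of the single drugs, the combination differed at an unadjusted p below 0.05 on 24 of the 32 probe sets, toward rosiglitazone on 21 and toward carboplatin on 3. The same held for 5.31% of all probe sets, 708 in number, and 0 were called by limma after adjustment. The contrast with the mean of the single drugs uses the single-drug arrays and the estimate of spread by which the 32 were chosen. The share among the 32 is thus no fair match for that of all probe sets. Of the 32 probe sets, 21 were also called in rosiglitazone against control, which is 65.6% of the 32 and 43.8% of the 48 called there (0.360% of those tested, 0.270% upward and 0.0900% downward). Those contrasts share the rosiglitazone arrays.

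**Figure D4:**
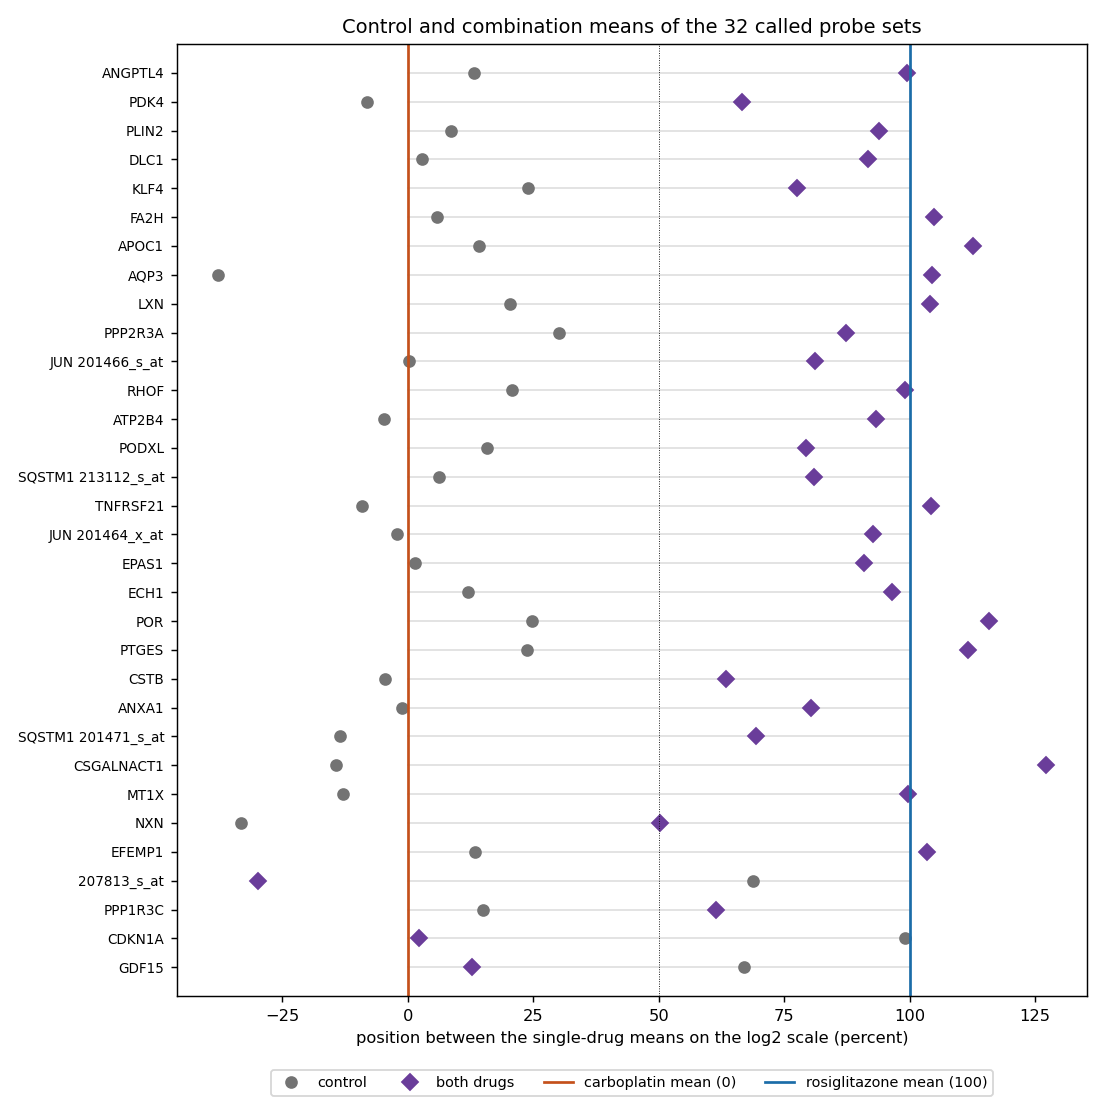
Position of the control mean and the combination mean (horizontal axis, percent) between the carboplatin mean at 0% and the rosiglitazone mean at 100%, 1 row per called probe set. Control lies nearer 0% and the combination nearer 100% on 29 of 32 rows, with NXN at 50.3% closest to the middle and CDKN1A, GDF15 and the unnamed probe set (labelled by its identifier) turned the other way.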

How the data were processed

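The deposited values are intensity values, 1 linear signal per probe set and array. Which software and scaling the authors used is not given in the sources used here. RNA was copied with an oligo-dT primer and biotinylated, per the labels' protocols. Signals were taken as log2(signal + 16), which understates differences of dim probe sets, and quantile normalized over the 8 arrays. The 68 control probe sets and the 8886 of 22215 others below the 40th percentile of the mean were left out. A model with 1 coefficient per group was fitted with limma 3.58.1 (R 4.3.3; lmFit, contrasts.fit, eBayes with an intensity trend), with 4 residual and 7.10 prior degrees of freedom, two-sided tests and Benjamini-Hochberg adjustment over all tested probe sets. The code was tested on simulated data.

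Of all probe sets, 19071 had 1 gene symbol, 1043 several and 2169 none, and 19059 symbols matched RefSeq genes of GRCh38.p14. A gene is represented by its tested probe set of highest mean. Named genes were the 15 largest non-overlapping calls each way, the leading genes of the mean of the single drugs against control, up to 4 members of smallest p per list, and all metallothioneins, PPARG, RXRA, MDM2 and CDKN1A. The arrays, gene lists and members were chosen with earlier results of these data known. Alternatives were other scalings, pseudocounts of 1 and 64, no filter and a 60th percentile filter, no trend, only the groups compared, a replicate block, brightness as a covariate, and each array left out. For gene lists, the mean over a gene's probe sets was a further alternative. With 2 arrays per group, their number limits the precision.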

Additional observations from a re-analysis of the deposited data

How the results depend on the processing

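Counts of calls are given in the order rosiglitazone against carboplatin (32), rosiglitazone against control (48), carboplatin against control (2), mean of the single drugs against control (1) and combination against that mean (0, with 708 at an unadjusted p below 0.05 in limma). With the deposited scaling they were 23, 24, 0, 12 and 5, and with median scaling 14, 18, 0, 0 and 2. With no filter the first 4 were 9, 6, 0 and 0, and without the intensity trend 8, 6, 0 and 0. A 60th percentile filter gave 5 for the mean of the single drugs and 2 for the combination. Fitting only the groups compared gave 15 in the direct contrast, 1 for carboplatin and 0 for the mean. Brightness as a covariate gave 14, 19 and, for the last pair, 0 and 3. Leaving out an array gave 5 to 21, 3 to 49, 0 to 2, 0 to 5 and 0 to 1. The cause of these shifts was not tested.

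Whether the replicate numbers pair the samples is not settled here. Deviations of same-numbered arrays correlated from -0.11 to 0.25, the highest between carboplatin and the combination. A replicate block gave 42 calls in the direct contrast, 31 of them among the 32, with 0 for carboplatin against control and 0 for the mean of the single drugs.

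The share of called probe sets with the combination nearer rosiglitazone was 73.9% with the deposited scaling. Leaving out an array gave 66.7% to 90.0%, and for control nearer carboplatin 62.5% to 90.5%. The deposited scaling moved the median of all tested probe sets to 0.27, and uncalled genes whose small differences changed sign with that shift stood below it, at 0.099 for BRCA1, 0.021 for COL1A1, 0.079 for CREBBP, 0.00075 for FEN1, 0.14 for GPI, 0.091 for HSPA5, 0.15 for NDUFS3, 0.21 for PPARG, 0.061 for PTTG1, 0.058 for SLC30A9 and 0.17 for SREBF1. MT3 stood at 0.19 with brightness as a covariate. With an array left out PPARG ran from -0.23 to 0.028 (the latter without rosiglitazone replicate 1), MDM2 from -1.02 to 0.25 (without rosiglitazone replicate 2) and SREBF1 from -0.33 to 0.099 (without carboplatin replicate 2). Dim probe sets near the filter carry the least precise differences.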

Other observations

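In 4 further gene lists, 0 members were called between the single drugs. NRF2 targets had a median of 0.05 over 23 genes, and HMOX1, or heme oxygenase, read 9.08 and 8.93 with rosiglitazone and 8.40 and 8.42 with carboplatin (0.60 ± 0.14, limma adjusted p = 0.169). The aldo-keto reductases AKR1C1, AKR1C2 and AKR1C3 differed by 0.28, 0.27 and 0.33. Fatty acid synthesis genes had 9 of 10 members above 0, with ELOVL6, a fatty acid elongase, at 0.63 ± 0.15 (limma adjusted p = 0.213). Among lung epithelial genes, AGR2 read 5.57 and 6.36 with rosiglitazone and 7.07 and 6.78 with carboplatin (-0.96 ± 0.26, limma adjusted p = 0.321). KRT7 lay the other way at 0.53 ± 0.13. Of 27 genes of crosslink repair and checkpoints, 11 lay above 0 and the median was -0.02.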
